A study of Mus musculus with 27 samples.

Results

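Mef2c alone (M) was compared with Tbx5 alone (T) by ATAC-seq, an assay in which a transposase cuts into open chromatin and so reports how accessible each region is. The comparison used all 3 libraries labelled Mef2c and all 3 labelled Tbx5, which are 6 of the 27 samples of the series. It was made over every region that passed a filter on low counts, 20494 of the 30815 regions in the deposited table. All cells were an immortalised fibroblast line from the neonatal hearts of Cd-1 mice that express large T antigen and carry the alpha-MHC-GFP reporter. M cells were infected with Mef2c retrovirus and T cells with Tbx5 retrovirus. Both were cultured with the Tgfβ inhibitor sb431542 and the Wnt inhibitor xav939, and both were harvested unsorted at day 2. Other groups of 3 libraries served as points of comparison. Mef2c with Tbx5 (MT), Gata4 with Mef2c (GM), Gata4 with Tbx5 (GT), all 3 factors (GMT) and Gata4 alone (G) had the same inhibitors. The dsRed control had a dsRed retrovirus and no inhibitors. The cells are 1 line, so differences between animals are not sampled, and unsorted cells include those that took up no virus. The labels name biological replicates but not what set them apart, so p-values refer to the spread between these libraries. The identity of the cells could not be checked on marker genes, because regions were not assigned to genes here.

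Mef2c is a MADS-box transcription factor that binds AT-rich sites at muscle genes and is needed for heart looping and for the muscle cells of the outflow tract and right ventricle. Tbx5 is a T-box transcription factor needed for the atria, the septa and the conduction system, and its loss of function causes Holt-Oram syndrome. Both belong to the Gata4, Mef2c and Tbx5 combination used to turn fibroblasts towards cardiomyocytes. Because M and T cells shared the inhibitors, the direct contrast does not involve the untreated control.

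The M libraries held 625166, 1031724 and 456282 counts and the T libraries 382527, 676886 and 551814. Across regions, Spearman correlations were 0.881 to 0.929 between M libraries, 0.833 to 0.883 between T libraries and 0.462 to 0.604 between an M and a T library. T replicate 3 lay nearer to M than its fellows did, with correlations of 0.589 to 0.604 against M libraries, where T replicate 1 had 0.462 to 0.501 and T replicate 2 had 0.494 to 0.522. No pair of libraries matched within sampling noise. The chi-square per degree of freedom was 1.47 to 2.31 within M, 3.26 to 4.06 within T and 5.03 to 11.1 between M and T. The library labelled GT replicate 1 also stood apart from the other GT libraries, and the comparisons of GM with GT are given with and without it.

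Accessibility differed between M and T at 6434 regions, 31.4% of those tested, at an adjusted p under 0.05 in edgeR's quasi-likelihood test. Of these, 3126 regions (15.3%) were higher in M and 3308 (16.1%) were higher in T, an almost even split under TMM scaling. With total counts alone as the scaling, 3446 were higher in M and 2988 in T, and the median over all regions was 0.13. With no filter the counts were 3363 and 3235. Which side had more calls thus depended on the processing. With TMM, the median log2 fold change of M over T was 2.19 in the regions higher in M and -2.29 in those higher in T. Over all regions it was 0.01. Most called differences were large. A difference of at least 2-fold was seen in 3060 of the M-higher and 3211 of the T-higher regions, at least 4-fold in 1870 and 2082, at least 8-fold in 629 and 806, and at least 16-fold in 140 and 150. In 13 M-higher regions no T library had a count, and in 1 T-higher region no M library had one. With those folds set at their lower bound, against a floor of 3 counts over the group, the medians were 2.18 for M-higher and 2.29 for T-higher regions, as sizes. In unsorted cells, a region open in more cells and a region more open in each cell cannot be told apart.

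At most called regions the single libraries did not overlap. The same libraries chose the regions, so this is a description and not further support for the calls. All 3 M libraries lay above all 3 T libraries at 3045 of the M-higher regions (97.4%), and all 3 T libraries lay above all 3 M libraries at 3182 of the T-higher regions (96.2%). Over all regions tested, such separation occurred at 22.8% with M higher and at 20.9% with T higher. Without T replicate 3, the library nearest to M, 6708 of 22123 regions were called, 3207 higher in M and 3501 higher in T. No single library of M or T, when left out, moved either count by more than 1.5 times. The filter used all 8 groups, and the share called depends on which regions are tested. A fit of only the M and T libraries tested 12406 regions and called 5411, 2710 higher in M and 2701 higher in T.

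**Figure D1:**
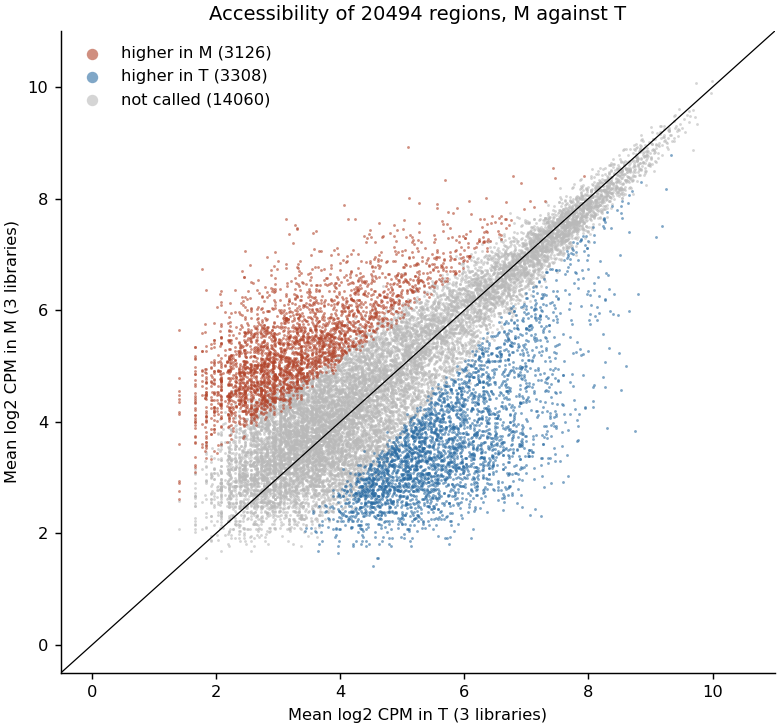
Each point is 1 of 20494 regions, with the mean log2 CPM of the 3 M libraries on the vertical axis and of the 3 T libraries on the horizontal axis. The 3126 regions higher in M (red) lie above the line of equality and the 3308 regions higher in T (blue) below it, and regions of the highest level cluster near the line.

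Regions that did not pass the test were not all shown to be alike. Of the 14060 uncalled regions, 3178 (22.6%) had a 95% confidence interval for the M over T difference that lay within 2-fold on both sides. Among the 7343 uncalled regions at or above the median level, 3166 (43.1%) had such an interval. Calls depended on level. From the lowest to the highest quintile of regions by mean log2 CPM, the share higher in M was 18.8%, 17.6%, 18.0%, 15.8% and 6.05%, and the share higher in T was 12.6%, 18.3%, 20.8%, 19.9% and 9.12%. The quintile with the highest levels thus had the fewest calls in either direction.

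The called regions held a large part of each library. M-higher regions received 16.6%, 15% and 15.9% of the tested counts in the M libraries, against 3.40%, 2.63% and 5.07% in the T libraries. T-higher regions received 5.44%, 5.47% and 6.11% of the counts in the M libraries, against 26.1%, 20.3% and 18.3% in the T libraries. These shares describe the libraries that chose the regions. T replicate 3 had the highest share of the T libraries in M-higher regions and the lowest in T-higher regions.

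The 10 M-higher regions with the highest fold change, among those at or above the median level whose libraries did not overlap, had log2 fold changes of 4.07 to 4.86 and widths of 252 to 495 bp. Their mean level was 60.6 to 196 CPM in M and 1.86 to 9.79 CPM in T. CPM are counts scaled to the size of the library and refer to the whole region, not to a base. The first, chr2:84624028-84624336, had 61.8, 67.2 and 66.5 CPM in the M libraries, against 0, 1.79 and 3.80 CPM in the T libraries. Its log2 fold change was 4.86 ± 0.62 (SE), with an edgeR adjusted p of 1.2e-06. M libraries were alike here, T libraries were close to no signal, and the dsRed control lay between them at 13.4, 16.9 and 21.8 CPM.

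The second, chr11:32846515-32846968, showed another form of the difference. It had 182, 202 and 204 CPM in the M libraries, against 2.93, 8.97 and 7.60 CPM in the T libraries, a log2 fold change of 4.79 ± 0.47 (edgeR adjusted p 2.96e-08). The control had 8.91, 7.82 and 8.51 CPM, within the range of the T libraries, so M stood apart from both. The third, chr8:60019773-60020104, had 202, 177 and 120 CPM in the M libraries, against 5.86, 3.59 and 11.4 CPM in the T libraries, and 8.91, 9.12 and 13.2 CPM in the control. Its log2 fold change was 4.54 ± 0.57 (edgeR adjusted p 1.02e-06). The other members of this list were chr4:64237548-64237799, chr4:32032956-32033450, chr18:26069730-26069989, chr15:27554910-27555280, chr6:106410837-106411120, chr17:80062644-80062947 and chr13:9352836-9353288. Of the 10, 9 were called higher in M than in the control and 2 were called lower in T than in the control. The exception was chr13:9352836-9353288, with 48.5, 73.4 and 59.9 CPM in M, 0, 1.79 and 7.60 CPM in T and 40.1, 37.8 and 19.9 CPM in the control. There T was called lower than the control (log2 fold change -3.14, edgeR adjusted p 0.000439). M was not called higher than the control (0.94, edgeR adjusted p 0.143), although all M libraries lay above all control libraries.

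The smallest p among M-higher regions belonged to chr15:27548996-27549292, which lies on the same stretch of chromosome 15 as chr15:27554910-27555280. It had 202, 217 and 173 CPM in M, against 11.7, 16.1 and 17.1 CPM in T, a log2 fold change of 3.68 ± 0.36 (edgeR adjusted p 2.96e-08). MT had 184 CPM in each of its 3 libraries, the level of M. Next after chr11:32846515-32846968 came chr10:128368426-128368781, with 154, 204 and 151 CPM in M, 2.93, 12.6 and 19 CPM in T and 53.5, 52.1 and 64.3 CPM in the control. M was called higher than the control there (log2 fold change 1.58, edgeR adjusted p 0.000597) and T lower (-2.19, edgeR adjusted p 0.000143).

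The 10 T-higher regions chosen in the same way had log2 fold changes of M over T from -5.23 to -4.70 and widths of 315 to 580 bp. Their mean level was 3.15 to 12.8 CPM in M and 111 to 439 CPM in T. The first, chr6:94912490-94912998, had 5.01, 5.17 and 4.44 CPM in the M libraries, against 232, 194 and 152 CPM in the T libraries. Its log2 fold change was -5.23 ± 0.60 (SE), with an edgeR adjusted p of 3.36e-07. The control had 2.23, 10.4 and 10.4 CPM, around the M level. The second, chr17:73371686-73372265, was the most accessible of the list in T. It had 8.36, 16.5 and 11.1 CPM in M, against 528, 474 and 317 CPM in T, a log2 fold change of -5.10 ± 0.58 (edgeR adjusted p 3.36e-07). The control had 31.2, 14.3 and 13.2 CPM, so again T alone was high.

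All 10 of these regions were called higher in T than in the control and none was called lower in M than in the control. The list continued with chr2:18753102-18753573, chr16:31492797-31493269, chr4:147830454-147830768, chr16:24367243-24367686, chr14:66890247-66890740, chr11:18848869-18849190, chr2:35687012-35687443 and chr6:5753140-5753569. The T libraries spread widely at some of these regions. At chr14:66890247-66890740, T had 214, 108 and 62.7 CPM, against 3.34, 5.17 and 4.44 CPM in M. T replicate 3 was the lowest T library there, as it was in 9 of the 10 regions of this list.

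The T-higher regions with the smallest p were chr12:45349408-45349985, chr1:136172255-136172701 and chr6:17888384-17888987. The first had 8.36, 10.3 and 8.87 CPM in M, against 179, 212 and 173 CPM in T (log2 fold change -4.31 ± 0.41, edgeR adjusted p 2.96e-08). The control was near M, at 15.6, 31.3 and 17.0 CPM. At chr6:17888384-17888987 the control lay between the factors instead. M had 23.4, 36.2 and 35.5 CPM, T had 346, 292 and 283 CPM and the control had 107, 124 and 140 CPM. M was called lower than the control (log2 fold change -1.96, edgeR adjusted p 8.2e-05) and T higher (1.30, edgeR adjusted p 0.000893).

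**Figure D2:**
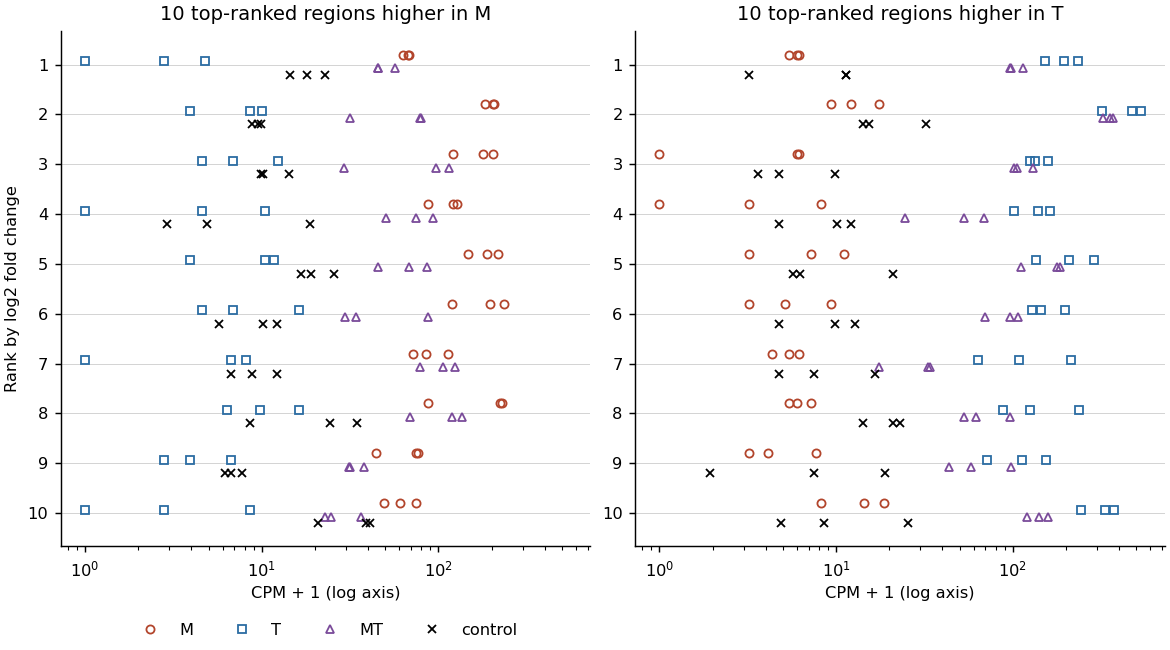
CPM plus 1 on a log axis for each M, T, MT and control library at the 10 regions of the highest fold change in each direction, numbered by rank from the top. M and T libraries do not overlap at any of the 20 regions, most MT libraries lie between them, and the control libraries lie near the lower factor at most regions.

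Among the called regions of the highest level, accessible in every group, differences were smaller. Those of the highest mean level whose M and T libraries did not overlap were as follows. On the M side they were chr8:32222183-32222396 and chr8:90821996-90822347, and on the T side chr14:103745800-103746341 and chr11:7323492-7324314. At chr8:32222183-32222396, M had 366, 368 and 286 CPM, against 261, 224 and 237 CPM in T, a log2 fold change of 0.50 ± 0.19 (edgeR adjusted p 0.0446). At chr14:103745800-103746341 the 2 groups nearly met. M had 511, 519 and 315 CPM, against 592, 852 and 528 CPM in T, a log2 fold change of -0.55 ± 0.21 (edgeR adjusted p 0.0488). Both calls sat at the threshold and were lost in most alternatives, in 15 and 14 of 19. The other 2 kept their call in all 19. At chr8:90821996-90822347, M had 426, 314 and 284 CPM, against 138, 73.5 and 122 CPM in T and 203, 258 and 285 CPM in the control. Here T was the group below the control (log2 fold change -1.19, edgeR adjusted p 0.0017). At chr11:7323492-7324314, M had 139, 135 and 202 CPM, against 531, 542 and 560 CPM in T and 445, 538 and 549 CPM in the control. There M was the group below the control (log2 fold change -1.70, edgeR adjusted p 6.3e-05).

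The direct contrast does not say which factor moved a region, so the called regions were read against the dsRed control. M and T each share this control and share their own libraries with the contrast that chose the regions, and each comparison with the control holds the factor and the inhibitors together, which cannot be told apart. The counts below are therefore a description. Over all regions tested, 9.67% were called higher and 6.47% lower in M than in the control, 16.1% in all, and 14.5% were called higher and 10.6% lower in T than in the control, 25.1% in all. Of the M-higher regions, 1575 (50.4%) were called higher in M than in the control and 793 (25.4%) were called lower in T than in the control. The 2 counts share 68 regions, and 826 regions (26.4%) were called in neither comparison. Of the T-higher regions, 2377 (71.9%) were called higher in T than in the control and 341 (10.3%) were called lower in M. These share 38 regions, and 628 (19%) were called in neither. At 68 plus 38 regions, 106 in all, the called directions of M and T relative to the control were opposite. The same 68 (0.332%) and 38 (0.185%) were the counts among all regions tested, so every such region was M-higher or T-higher. Opposite calls against a shared control nearly imply a difference between M and T, so the 106 were not read as a separate result. For the shares called in neither comparison, the background among all regions tested was 63.1%.

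Single libraries set some of these counts. The 1575 became 914 without control replicate 3. The 793 became 436 without T replicate 1 and 331 without T replicate 2. The 341 became 202 without control replicate 3, 217 without M replicate 1 and 141 without M replicate 2. The 2377 stayed within 1.5 times when any 1 library was left out. In these counts the regions higher in M or T were called again in each fit.

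Cells with both factors lay between M and T cells at the median. In M-higher regions the median level was 21.8 CPM in MT, 38.2 CPM in M and 7.41 CPM in T, and in T-higher regions it was 32.3 CPM in MT, 8.86 CPM in M and 51.3 CPM in T. M-higher regions took 10.0%, 10.2% and 10.2% of the counts in the MT libraries, and T-higher regions took 15.5%, 16.3% and 15.2%. Each level was next placed on a log2 scale on which the mean of M is 1 and the mean of T is 0. The median position of MT was 0.632 in M-higher regions, from 0.628 to 0.662 over the MT libraries, and 0.303 in T-higher regions, from 0.252 to 0.359. MT was thus on the side of the factor that was higher, in all 3 libraries and in both sets. Against the arithmetic mean of M and T on the CPM scale, a measure added after the data were seen, the median log2 ratio of MT was -0.06 in M-higher and 0.03 in T-higher regions. The M and T libraries that chose the regions also set the ends of this scale, so positions carry that choice.

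Region by region, MT differed from the midpoint of M and T on the log2 scale at 630 regions, 3.07% of those tested. Of these, 624 lay above (3.04%) and 6 below (0.0293%). A level at the arithmetic mean of M and T lies above this midpoint wherever M and T differ. The median over all regions was 0.14 with TMM scaling, 0.06 with RLE, 0.19 with total counts and -0.02 with loess offsets, so values near these sizes depend on the scaling. Among M-higher regions 129 were above the midpoint and 2 below, with a median of 0.34, and among T-higher regions 252 were above and 1 below, with a median of 0.51. With loess offsets these medians were 0.13 and 0.29, and 251 regions were called over all, of which 245 lay above. The count of 630 was carried by many libraries. It was 238 without M replicate 1 and also without M replicate 2, 383 without M replicate 3, 318, 296 and 366 without T replicates 1, 2 and 3, 201 without MT replicate 1 and 93 without MT replicate 2.

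The 3 regions with the smallest p above the midpoint, among those called in M versus T, were as follows. At chr15:22261286-22261486, MT had 118, 128 and 94.2 CPM, against 6.69, 5.17 and 17.7 CPM in M and 32.2, 30.5 and 30.4 CPM in T. MT lay 2.76 ± 0.37 above the midpoint in log2 units (edgeR adjusted p 0.000139). At chr2:115762184-115762873, MT had 198, 179 and 51.8 CPM, against 1.67, 7.24 and 8.87 CPM in M and 55.7, 39.5 and 17.1 CPM in T, 3.28 ± 0.45 above the midpoint (edgeR adjusted p 0.000139). The MT libraries were above all T libraries at the first and overlapped them at the second. Both regions were higher in T than in M, a call lost in 3 of 19 alternatives at the chr15 region and in 0 of 18 at the chr2 region. At the M-higher region chr10:39068516-39068924, MT had 101, 96.0 and 54.2 CPM, against 16.7, 21.7 and 28.8 CPM in M and 5.86, 1.79 and 13.3 CPM in T, 2.75 ± 0.38 above the midpoint (edgeR adjusted p 0.000144). There all MT libraries were above all M libraries, and the M versus T call was lost in 7 of 18 alternatives. GMT had 44.1, 33.5 and 94.2 CPM at the chr15 region and 32.1, 52.9 and 51.5 CPM at the chr10 region, above every M and T library. At the chr2 region GMT had 24.1, 61.9 and 89.2 CPM and overlapped T.

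The 3 called regions below the midpoint among those called in M versus T had larger p-values. At chr3:80090418-80090618, MT had 2.54, 1.68 and 2.35 CPM, against 26.7, 23.8 and 35.5 CPM in M and 5.86, 5.38 and 5.70 CPM in T, 2.39 ± 0.62 below the midpoint (edgeR adjusted p 0.0263). Every MT library was below every T library there. At chr8:89283057-89283278, MT had 17.8, 8.42 and 11.8 CPM, against 98.6, 71.4 and 44.4 CPM in M and 44.0, 19.7 and 22.8 CPM in T (edgeR adjusted p 0.0263). At chr6:86476593-86476828, MT had 125, 97.7 and 91.8 CPM, against 147, 163 and 146 CPM in M and 205, 387 and 160 CPM in T (edgeR adjusted p 0.0374). All 3 lost their call against the midpoint without MT replicate 1 (adjusted p 0.0638, 0.144 and 0.0826 in edgeR for chr8, chr3 and chr6). They also lost it without M replicate 1 (edgeR adjusted p 0.0631, 0.0561 and 0.0787). Their M versus T calls were lost in 6 of 19 alternatives for chr8, 1 of 19 for chr3 and 10 of 19 for chr6.

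**Figure D3:**
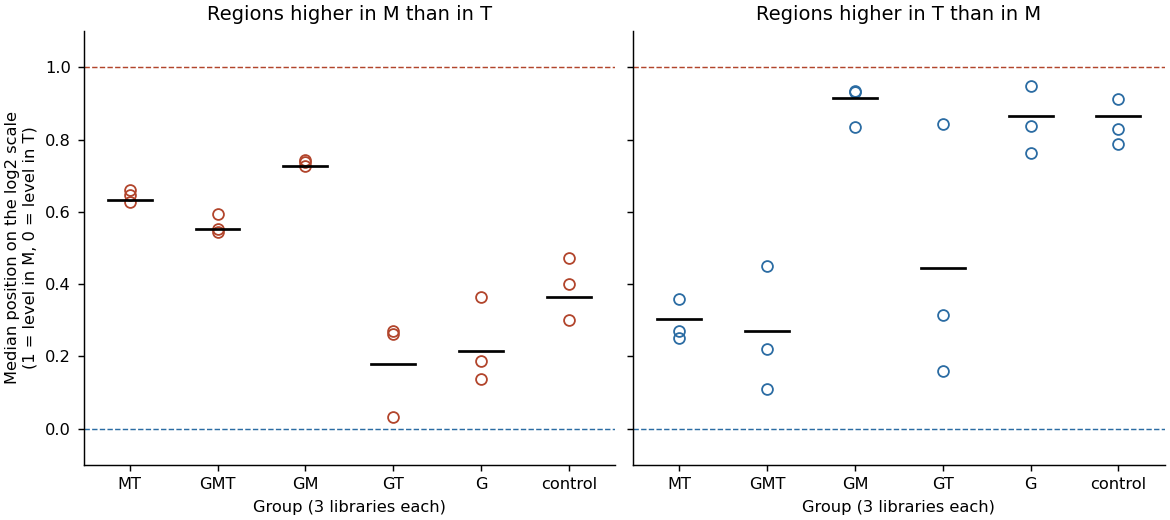
Median position of each library on the log2 scale from the level in T (0, blue dashed line) to the level in M (1, red dashed line), for M-higher regions on the left and T-higher regions on the right. Circles are single libraries and bars the position of the group mean. MT and GMT lie between the lines in both sets, GM lies on the M side, and the 3 GT libraries spread from 0.159 to 0.843 in T-higher regions.

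The remaining groups were placed on the same scale. In M-higher regions the median position was 0.726 in GM, 0.553 in GMT, 0.178 in GT, 0.214 in G and 0.365 in the control. In T-higher regions it was 0.915 in GM, 0.269 in GMT, 0.444 in GT, 0.866 in G and 0.866 in the control. Without GT replicate 1 the positions of GT were 0.139 and 0.239. The control and G, which received neither Mef2c nor Tbx5, thus lay on the T side in M-higher regions and on the M side in T-higher regions. Among the GT libraries, replicate 1 stood at 0.843 in T-higher regions, where GT replicates 2 and 3 stood at 0.159 and 0.313. T-higher regions took 8.29% of its counts, against 18.3% and 15.8% in the other GT libraries and 8.40%, 8.75% and 8.08% in the G libraries.

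GM against GT repeats the exchange of Mef2c for Tbx5 in cells that also received Gata4, in libraries that did not choose the regions. GM and GT differed at 2782 regions (13.6% of those tested), 1324 higher in GM (6.46%) and 1458 higher in GT (7.11%). Of the 3126 M-higher regions, 1093 (35.0%) were called higher in GM and 0 were called higher in GT. Of the 3308 T-higher regions, 1165 (35.2%) were called higher in GT and 1 was called higher in GM. Those shares stand against the 6.46% and 7.11% over all regions. Read the other way, 82.6% of the regions called higher in GM were M-higher and 79.9% of those called higher in GT were T-higher.

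The direction was shared more widely than the calls. GM lay above GT at 2955 M-higher regions (94.5%), with a median log2 fold change of 1.19, and GT lay above GM at 3179 T-higher regions (96.1%), with a median of -1.24. The median over all regions was -0.03. Across all 20494 regions, which share libraries and neighbours, the log2 fold changes of M over T and of GM over GT had a Pearson correlation of 0.783. The larger the difference between M and T, the larger it was between GM and GT. Among M-higher regions of 2 to 4-fold, 4 to 8-fold and over 8-fold, the median log2 fold change of GM over GT was 0.80, 1.38 and 1.88, and 21.7%, 40.2% and 52.3% were called higher in GM. Among T-higher regions of the same sizes it was -0.83, -1.42 and -1.90, and 19.8%, 38.9% and 54.6% were called higher in GT. Since the M and T libraries chose the regions by size, no difference in size between the 2 contrasts is read from these medians.

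Without GT replicate 1, 1565 regions (7.23% of 21657) were higher in GM and 2373 (11%) were higher in GT. Of the M-higher regions, 1204 were then called higher in GM, with a median log2 fold change of 1.36, and of the T-higher regions 1830 were called higher in GT, with a median of -1.58. GM lay above GT at 95.9% of the M-higher regions and GT above GM at 96.7% of the T-higher regions. Of the regions called higher in GM, 76.9% were M-higher, and of those called higher in GT, 77.1% were T-higher. The correlation with M over T was 0.7995 over 20467 regions. From 2 to 4-fold to over 8-fold between M and T, the medians were 0.92, 1.60 and 2.12 in M-higher regions, with 25.2%, 44.2% and 55.2% called higher in GM, and -1.05, -1.79 and -2.33 in T-higher regions, with 36.9%, 61.3% and 77.3% called higher in GT. Other libraries moved the counts downwards. Without GT replicate 2 the counts higher in GM and in GT were 322 and 90, without GM replicate 1 they were 741 and 546, and without GM replicate 3 the count higher in GT was 791. When both comparisons were refitted without GT replicate 2, 295 M-higher regions were called higher in GM and 78 T-higher regions higher in GT. Without GM replicate 1 these were 648 and 442, and without GM replicate 3 the T-higher regions called higher in GT were 661.

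The strongest M and T regions kept their direction with Gata4. All 10 M-higher regions of the highest fold change were called higher in GM than in GT, with log2 fold changes of 1.37 to 4.04. At chr11:32846515-32846968, GM had 44.1, 22.3 and 45.8 CPM, against 10.1, 7.46 and 4.60 CPM in GT. The GM libraries were well below the 182 CPM of the lowest M library there. At chr15:27548996-27549292, by contrast, GM had 161, 204 and 191 CPM, against 21.5, 10.3 and 18.4 CPM in GT, which is the level of M. Of the 10 T-higher regions, 9 were called higher in GT, and the log2 fold changes of GM over GT ran from -3.80 to -1.60. At chr17:73371686-73372265, GM had 11.2, 17.4 and 22.1 CPM, against 12.6, 309 and 195 CPM in GT. GT replicate 1 alone was at the GM level. The uncalled region was chr2:35687012-35687443, with 7.23, 7.45 and 14.2 CPM in GM, against 6.32, 54.1 and 23.0 CPM in GT (edgeR adjusted p 0.0951). Without GT replicate 1 it was called too, with a log2 fold change of -2.11 (edgeR adjusted p 0.0112), so all 10 were then called. The log2 fold changes of GM over GT then ran from 2.21 to 4.31 in the 10 M-higher regions, all called, and from -4.39 to -2.11 in the 10 T-higher regions.

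**Figure D4:**
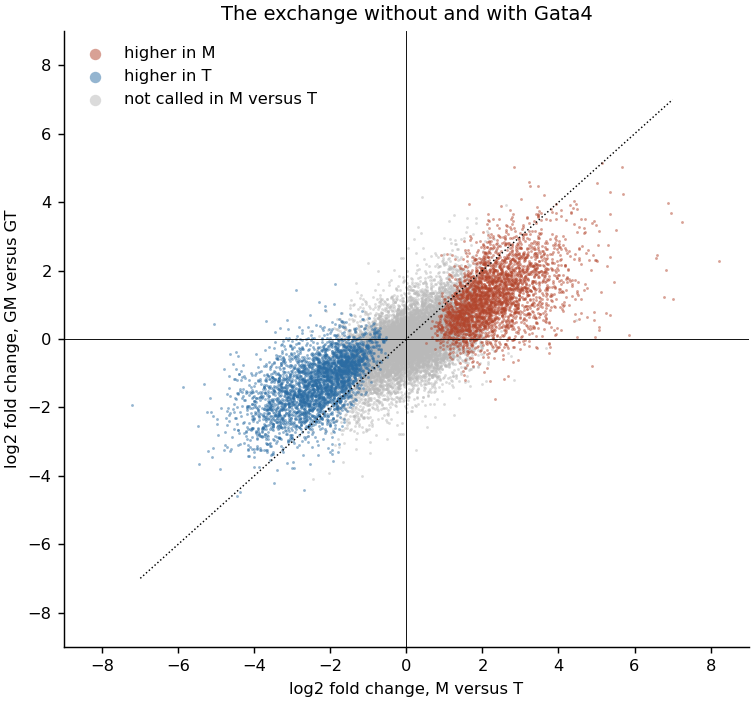
Log2 fold change of GM over GT on the vertical axis against that of M over T on the horizontal axis for 20494 regions, with regions called higher in M in red and higher in T in blue. Most red points lie in the upper right and most blue points in the lower left, below the dotted line of equality on the right and above it on the left.

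Whether the exchange differed with and without Gata4 was tested as the difference of the 2 contrasts. It was called at 3 regions, 0.0146% of those tested, all with a difference below 0, where 1844 regions had an unadjusted p under 0.05 in edgeR. DESeq2 called 16. The count was 0 without M replicate 1 and without T replicate 2, 1 without M replicate 2, 12 without T replicate 3 and 22 without GT replicate 2. The clearest change of direction was at chr19:56453036-56453820, a region of 785 bp. M had 31.8, 37.2 and 20.0 CPM, against 149, 122 and 68.4 CPM in T, and GM had 76.3, 59.6 and 67.9 CPM, against 19, 20.5 and 29.9 CPM in GT. T was above M without Gata4 and GM was above GT with it, with no overlap in either pair. M over T had a log2 fold change of -1.87 ± 0.40 (edgeR adjusted p 0.000497), GM over GT had 1.61 ± 0.41 (edgeR adjusted p 0.00835), and the difference was -3.48 ± 0.57 (edgeR adjusted p 0.0147). It was the only region called in both contrasts in opposite directions. MT had 194, 125 and 89.5 CPM, and G had 9.06, 13.0 and 8.48 CPM.

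At the other 2 regions the T-higher signal was not seen at the same size with Gata4. At chr1:136172255-136172701, M had 1.67, 3.10 and 2.22 CPM, against 202, 163 and 96.8 CPM in T, and GM had 10.5, 4.96 and 7.90 CPM, against 8.85, 38.2 and 18.4 CPM in GT. The difference of the contrasts was -4.48 (edgeR adjusted p 0.02). At chr11:51235449-51235862, M had 5.01, 8.27 and 11.1 CPM, against 52.8, 78.9 and 49.4 CPM in T, and GM had 10.5, 19.9 and 4.74 CPM, against 3.79, 3.73 and 4.60 CPM in GT. The difference was -4.34 (edgeR adjusted p 0.02). G had 9.97, 15.6 and 4.24 CPM there, with its lowest library near GT, and MT had 29.9, 23.6 and 25.9 CPM. Without GT replicate 1 the adjusted p was 0.0486 for chr19 and chr1 and 0.066 for chr11 in edgeR.

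Regions higher in T were wider than regions higher in M. The median width was 265 bp for M-higher, 305 bp for T-higher and 250 bp for uncalled regions, and 5.95%, 12.1% and 5.54% of them were at least 500 bp wide. The share of tested regions higher in T climbed with width, through 7.81% at 201 bp, 11.9% at 202 to 250 bp, 16.9% at 251 to 300 bp, 18.7% at 301 to 400 bp, 24.2% at 401 to 500 bp and 29.4% above 500 bp. The share higher in M was 4.09% at 201 bp and between 13.6% and 17.2% in every wider class. Wider regions also had more counts, with a median log2 CPM of 3.76 at 201 bp and 5.45 above 500 bp. Within quintiles of regions by level, the share higher in T among regions over 400 bp and up to 400 bp was 9.19% and 12.8% in the lowest quintile, 25.0% and 17.6% in the next, 34.4% and 18.4% in the middle, 36.6% and 15.5% above it and 18.7% and 5.70% in the highest. The share higher in T was thus larger among the wide regions in the 4 upper quintiles and smaller in the lowest. In the same order, the share higher in M was 21.6% and 18.6%, 18.0% and 17.6%, 20.5% and 17.6%, 19.1% and 14.9%, and 7.87% and 5.4%, larger among the wide regions in all 5. The differences between these shares were not tested. How the authors set the region borders, and from which libraries, is not given in the sources used here.

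Neighbouring regions tended to be called the same way. Of 257 neighbouring pairs less than 1 kb apart with both regions called, 243 (94.6%) had the same direction. The share with the same direction was 74.5% at 1 to 5 kb, 67.9% at 5 to 10 kb, 57.8% at 10 to 50 kb, 57.1% at 50 to 100 kb and 48.3% beyond 100 kb. An M-higher region had another M-higher region within 10 kb in 342 cases (10.9%), and a T-higher region had another T-higher region in 809 (24.5%). Uncalled regions had an M-higher region that near in 6.16% and a T-higher region in 7.29%. Regions of the other direction were near in 4.99% of M-higher and 5.11% of T-higher regions. A tested neighbour of any kind lay that near in 34.3% of M-higher, 46.7% of T-higher and 39.3% of uncalled regions.

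**Figure D5:**
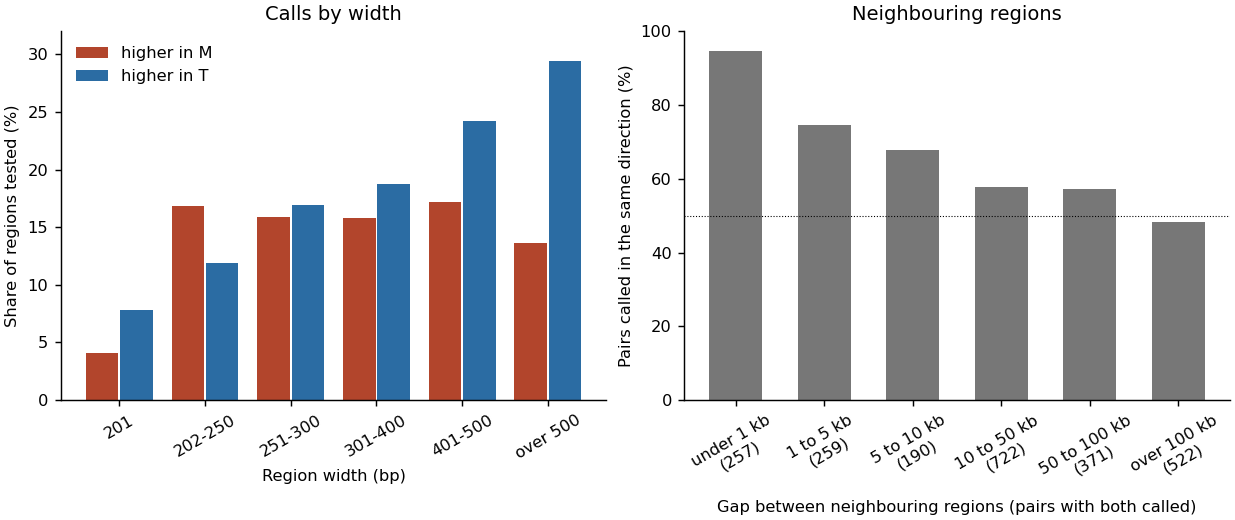
Left, share of tested regions called higher in M (red) or in T (blue) by region width, where the share higher in T reaches 29.4% above 500 bp. Right, share of neighbouring pairs with both regions called that have the same direction, by the gap between them, from 94.6% under 1 kb to 48.3% over 100 kb; the dotted line marks 50%.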

How the data were processed

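The authors' table holds raw read counts per region for 24 libraries, made with featureCounts after Bowtie2 and Picard on mouse build mm9, per the submitters' processing notes. Versions, peak calling and read filters are not given in the sources used here. Libraries came from 50000 cells with 12 PCR cycles and reads of 100 bp, per the labels.

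Groups follow the labels. In R 4.3.3 with edgeR 4.0.16, regions were filtered with filterByExpr (minimum count 10, minimum total 15), scaled by TMM and fitted over 8 groups with the quasi-likelihood test. P-values were adjusted by Benjamini-Hochberg in each comparison and called under 0.05. SE is the log2 fold change over the root of F. CPM use TMM sizes, and log2 CPM a prior count of 2. limma 3.58.1 and DESeq2 1.42.0 served alternatives.

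Named regions have the 10 largest fold changes in each direction at or above the median level with libraries apart. Others have the 3 smallest p or, with libraries apart, the 2 highest levels in each direction. Up to 3 each way were named for the difference of contrasts and for MT. The members, lists and rules were chosen with earlier results of these data known. Total counts of 382527 to 1031724 in M and T limit precision at low levels, and PCR copies were not told apart by molecular identifiers. Regions were not assigned to genes and no sequence is shown, since the annotation at hand is of GRCm38. The 3 dsRed samples with inhibitors are not analysed here.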

Additional observations from a re-analysis of the deposited data

Results flagged for a closer look

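At 3 regions the effect of exchanging Mef2c for Tbx5 differed between cells without and with Gata4, by the test of the difference of the contrasts in edgeR. The difference, M over T minus GM over GT, was -4.48 at chr1:136172255-136172701, -4.34 at chr11:51235449-51235862 and -3.48 at chr19:56453036-56453820, on the log2 scale. The edgeR adjusted p was 0.02, 0.02 and 0.0147, in that order. At chr19:56453036-56453820 the 2 contrasts had opposite signs, -1.87 without and 1.61 with Gata4, and both were called. At chr11:51235449-51235862 they were -2.90 (adjusted p 3.87e-05 in edgeR) and 1.43 (adjusted p 0.111 in edgeR). At chr1:136172255-136172701 both were below 0, at -5.87 and -1.40. The library labelled GT replicate 1 had 19 CPM at chr19:56453036-56453820, where GT replicates 2 and 3 had 20.5 and 29.9 CPM. Without GT replicate 1 the differences were -4.08, -4.30 and -3.37, in the order first given, with edgeR adjusted p of 0.0486, 0.066 and 0.0486. None of the 3 was called without M replicate 1 or without T replicate 2. In a fit of only the compared groups, chr19 was called (edgeR adjusted p 0.0138) and chr1 and chr11 were not (0.0978 for each). Among the 20494 regions tested, libraries did not overlap in opposite directions in the 2 contrasts at 19 with M above T. The same held at 17 with T above M. Of these, 1 was called in both contrasts. M and T libraries by themselves did not overlap at 22.8% of all regions with M higher and at 20.9% with T higher. Whether 19 and 17 are more than would arise from spread between libraries was not tested. Every group had 3 samples, so no test for single outlying samples was made. The remarks on GT replicate 1 and T replicate 3 describe their values only.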

How the results depend on the processing

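Among the region counts reported, 139 of the 162 values under alternatives that left out no library stayed within 1.5 times of the main count. Medians and positions are not part of this tally. Fits of only the compared groups gave 836 regions for GM versus GT (524 higher in GM, 312 in GT), 2710 lower in M than the control, 1 for the difference of contrasts, 1161 for MT against the midpoint, 423 M-higher regions also higher in GM, 248 T-higher regions also higher in GT and 561 T-higher regions lower in M than the control. A minimum fold of 1.5 gave 1555 for GM versus GT (781 and 774), 645 lower in M and 1408 lower in T than the control, 153 for the midpoint, 635 and 639 shared with GM and GT, 436 M-higher regions lower in T and 159 T-higher regions lower in M than the control. The midpoint count was 251 with loess offsets, 386 in DESeq2 and 370 with a filter of CPM above 10, and the difference count 16 in DESeq2. DESeq2 gave no adjusted p at 2782 regions for the midpoint and at 7549 for the difference. The causes of these changes in the counts were not tested.

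Leaving out 1 library or 1 replicate number of all groups gave ranges of 3819 to 6910 for M versus T (1672 to 3368 higher in M, 2147 to 3542 in T), 256 to 3938 for GM versus GT (203 to 1565 and 53 to 2373), 0 to 22 for the difference and 12 to 939 for the midpoint. They were 698 to 2210 higher and 298 to 1597 lower in M than the control, and 1681 to 3176 higher and 680 to 2636 lower in T. For M-higher regions they were 166 to 1240 (higher in GM), 570 to 1744 (M above control) and 196 to 1110 (T below control), and for T-higher regions 48 to 1900 (higher in GT), 1327 to 2581 (T above control) and 90 to 442 (M below control).

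In their deviations from the group means, same-numbered M and T libraries correlated at 0.0636, 0.139 and 0.152. Libraries of different numbers were not compared, so whether replicate numbers pair M with T was not tested. With the replicate block, M versus T gave 6456 calls (3141 and 3315), GM versus GT 2526 and the midpoint 655. GM over GT at chr14:103745800-103746341 changed sign, to 0.01 with total counts and ran from -0.18 to 0.11 as libraries were left out, above 0 without GM replicate 2 or 3, GT replicate 2 or replicate 2 of all groups. At 50 kb, 27.7% of M-higher and 42.9% of T-higher regions had a neighbour of their own direction. The position of MT in M-higher regions was 0.665 with a prior count of 0.5. The 382527 counts of T replicate 1 limit calls at low levels.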

Other observations

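Calls were spread over all chromosomes. The share of tested regions higher in M ran from 12.8% on chromosome 19 to 22.3% on X, with 20.0% on chromosome 18, and the share higher in T ran from 13.3% on X to 18.9% on chromosome 17. X thus had the highest share of M-higher and the lowest share of T-higher regions, at 77 and 46 of its 346 regions tested. These shares were not tested, since neighbouring regions are not independent.

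Runs of 3 or more called regions of 1 direction were counted, with gaps under 10 kb and no region of the other direction between them. They numbered 9 for M-higher and 63 for T-higher regions. A tested region of any kind lay within 10 kb of 34.3% of M-higher and 46.7% of T-higher regions, and the run counts are not corrected for this. Some runs were short, such as 3 T-higher regions within 837 bp at chr13:51811840-51812676. Uncalled tested regions lay inside 12 of the T-higher and 0 of the M-higher runs. The examples here were chosen after their values were seen. At chr10:67619433-67631589, 4 neighbouring regions were higher in M, with a summed level of 333, 261 and 302 CPM in M, 26.4, 43.1 and 45.6 CPM in T, 205, 217 and 198 CPM in MT and 122, 96.4 and 87.0 CPM in the control. The control lay between M and T there, and MT between M and the control. At chr8:18910728-18921532, 5 neighbouring regions were higher in T, with a summed level of 36.8, 53.8 and 62.1 CPM in M, 704, 474 and 353 CPM in T, 273, 337 and 290 CPM in MT and 98.0, 43.0 and 37.8 CPM in the control.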
